A study of Mus musculus with 6 samples.

Results

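The genes described here encode nucleolar ribosome biogenesis factors, the non-ribosomal proteins that transcribe, modify, cut and fold ribosomal RNA on its way to the finished subunits. They were chosen by name from a list of 57 gene symbols. This rule uses no measured value, but the list was made with earlier results of these data known. Of the 57 symbols, 56 were among the 41255 genes listed with values, and Riok2 was not analysed here. All 56 passed the filter on low values, a mean normalized read count of at least 10, which 11550 genes passed in all.

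The values came from total mRNA of Ba/F3, a lymphoid line of mouse origin that needs interleukin-3, sequenced to compare human RPL10 with arginine 98 replaced by serine (R98S, a change found in T-cell acute lymphoblastic leukemia) with its WT form. The WT group comprised 3 monoclonal cultures (clones 28, 29 and 36) and the R98S group 3 others (clones 11, 13 and 35), with 1 library per clone. All 6 clones carried a retroviral human RPL10 cDNA and a short hairpin RNA against the mouse Rpl10 gene, and all were treated for 5 min with 100 µg/ml cycloheximide, which stalls translating ribosomes. Every culture descends from 1 cell after retroviral transfer, so differences between clones include those between single founder cells and integration sites, and p-values measure the spread between clones.

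Ribosome assembly starts in the nucleolus, where RNA polymerase I transcribes a long precursor that holds the 18S, 5.8S and 28S rRNAs. Small nucleolar ribonucleoproteins (snoRNPs) guide the methylation and pseudouridylation of this precursor, the small subunit processome folds and cuts the part that becomes the 40S subunit, and another set of GTPases, helicases and scaffold proteins builds the 60S subunit, into which RPL10 is placed as one of the last proteins. Genes of this pathway are known to be transcribed together in growing cells, with MYC as a well studied regulator.

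Nucleolar ribosome biogenesis factors had higher mRNA levels in the R98S clones as a group. Of the 56 genes, 29 rose and none fell (limma on log2(normalized count + 1), Benjamini-Hochberg adjusted p under 0.1), which is 51.8% of them, where 10.7% of all tested genes rose and 13.1% fell. Without adjustment, 33 of the 56 had a p under 0.05 with a higher level and none with a lower one. The median difference over the 56 genes was 0.38 on the log2 scale, a fold of 1.30, beside -0.01 over all tested genes, and the quartiles were 0.18 and 0.62. The level was above that of WT in 53 of 56 genes, against 49.1% of all tested genes. In 41 of the 56 every R98S clone was above every WT clone, which 18.1% of all tested genes showed, and in none was every R98S clone below, which 19.2% of all tested genes showed. Among the 7496 tested genes whose mean level lay in the range of these factors, 11.0% rose. In bulk mRNA, fewer cells with a transcript and less transcript per cell cannot be told apart, and a normalized count is a level relative to the rest of the library, not per cell.

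The 29 genes that rose did so by 1.28 to 2.42 times, with a median ratio of R98S to WT means of 1.53. In all 29 the groups did not overlap, and 25 of them, all higher, passed at an adjusted p under 0.05 as well, where 6.72% of all tested genes were higher. Only Polr1e and Ebna1bp2 among the 56 rose at least 2-fold. The other 27 genes had ratios between 0.841 (Riok1) and 1.25, and in 12 of these every R98S clone was again above every WT clone. At the threshold itself, Wdr75 and Nolc1 lay just inside with adjusted p-values in limma of 0.099 and 0.0995, and Imp3 just outside with 0.113. As a share of all normalized counts, the genes together took 1.19% in clone 28, 1.14% in clone 29 and 1.08% in clone 36 of the WT group. In the R98S group they took 1.74% in clone 11, 1.56% in clone 13 and 1.52% in clone 35. Without nucleolin and nucleophosmin, the 2 with the highest means, these shares ran from 0.669% to 0.742% in the WT clones and from 0.902% to 1.01% in the R98S clones, with no overlap.

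**Figure D1:**
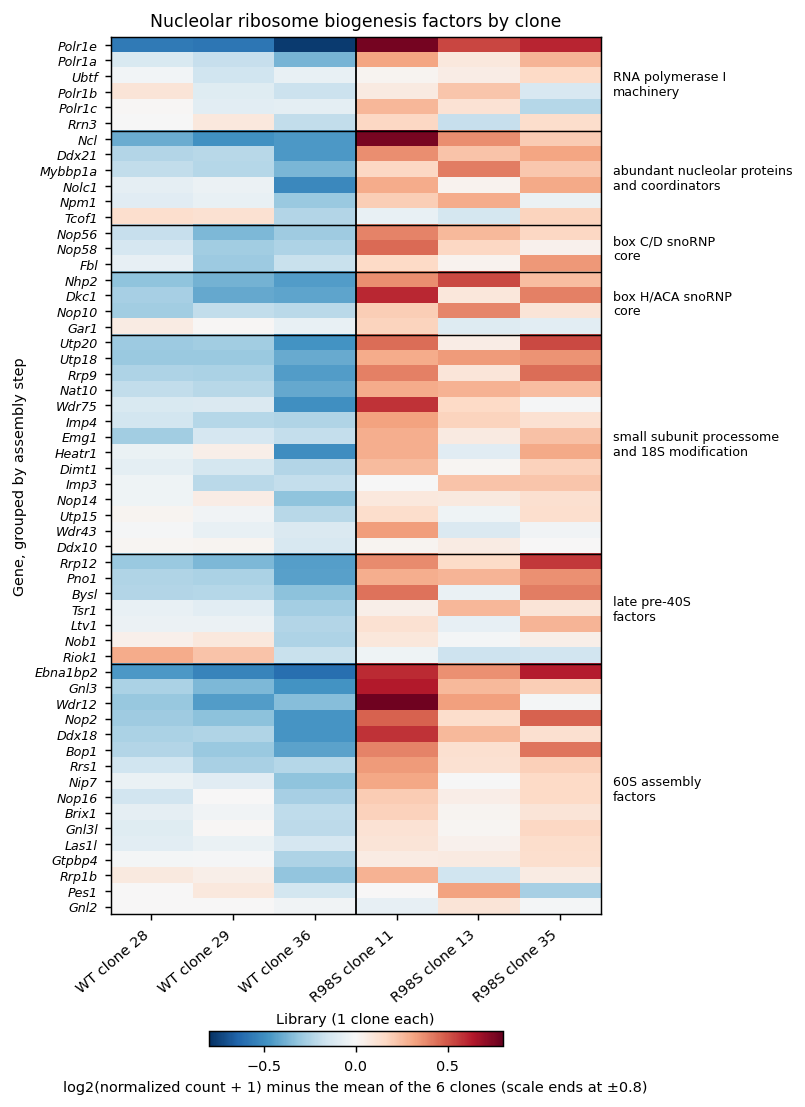
Each row is 1 of the 56 genes, grouped by assembly step and ordered by its difference between groups, and each column 1 clone; color gives log2(normalized count + 1) minus the gene's mean over the 6 clones. Most rows are blue in the 3 WT columns and red in the 3 R98S columns, WT clone 36 has the lowest value of the 6 in 41 rows, and rows such as Gar1, Pes1 and Riok1 lack this pattern.

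Genes that move together prompt a look at the sequence before their start sites, so windows from 250 bases before to 50 bases after each start annotated by RefSeq (GRCm38.p6) were searched on both strands for 3 exact sequences. These were CACGTG, CCGGAAGT and TCTCGCGA. CACGTG, the E-box bound by MYC and related factors, reads the same on both strands. CCGGAAGT is the core bound by many ETS family factors, and TCTCGCGA is frequent in promoters without a TATA box. A window was given for 48 of the 56 genes, and Npm1, Tcof1, Fbl, Rrp12, Bop1, Rrs1, Gnl2 and Gnl3l had none. CACGTG was present for 11 of the 48, in 11 of their 56 windows (19.6%), where 7.15% of all 32851 windows held it. CCGGAAGT was present for 12 of the 48, in 21.4% of their windows against 3.89% of all windows. TCTCGCGA was present for 4, in 7.14% of their windows against 0.995%. The full set of windows includes those of noncoding genes, and a match is a description of the sequence and not a binding site.

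Both the genes that rose and those that did not held these sequences. CACGTG was present for 6 of the 25 risen genes with a window and for 5 of the 23 others, CCGGAAGT for 4 and 8, and TCTCGCGA for 1 and 3. The windows below are those of the genes with the largest rise (Polr1e and Ebna1bp2), of a processome gene that rose with an E-box (Utp18), and of Rrn3, which holds both sequences and did not pass the test. Capitals mark CACGTG, CCGGAAGT or its complement ACTTCCGG. The Polr1e window (chr4:45018359-45018658, plus strand) has the ETS-type sequence 24 bases after the start, and that of Ebna1bp2 (chr4:118620549-118620848, plus strand) 3 bases before it. In Utp18 (chr11:93885717-93886016, minus strand) the E-box lies 20 bases before the start. In Rrn3 (chr16:13780449-13780748, plus strand) E-boxes lie 215 and 48 bases before the start and the ETS-type sequence 6 bases before it.
Polr1e promoter: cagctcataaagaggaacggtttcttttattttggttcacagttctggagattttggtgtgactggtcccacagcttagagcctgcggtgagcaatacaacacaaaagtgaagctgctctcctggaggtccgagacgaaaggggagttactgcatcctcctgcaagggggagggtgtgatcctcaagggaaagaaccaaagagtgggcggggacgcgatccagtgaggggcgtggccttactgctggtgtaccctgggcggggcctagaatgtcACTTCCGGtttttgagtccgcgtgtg
Ebna1bp2 promoter: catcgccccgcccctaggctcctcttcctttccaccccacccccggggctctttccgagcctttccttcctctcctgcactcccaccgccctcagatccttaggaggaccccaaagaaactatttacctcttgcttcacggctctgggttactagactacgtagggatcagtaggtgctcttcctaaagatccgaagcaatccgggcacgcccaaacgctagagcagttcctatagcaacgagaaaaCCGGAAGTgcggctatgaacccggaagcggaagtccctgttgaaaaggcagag
Utp18 promoter: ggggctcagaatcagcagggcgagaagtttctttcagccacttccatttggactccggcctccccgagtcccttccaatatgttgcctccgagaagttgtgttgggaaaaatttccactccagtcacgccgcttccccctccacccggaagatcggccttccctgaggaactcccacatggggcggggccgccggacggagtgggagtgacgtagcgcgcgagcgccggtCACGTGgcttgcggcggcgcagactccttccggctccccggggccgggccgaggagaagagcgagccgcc
Rrn3 promoter: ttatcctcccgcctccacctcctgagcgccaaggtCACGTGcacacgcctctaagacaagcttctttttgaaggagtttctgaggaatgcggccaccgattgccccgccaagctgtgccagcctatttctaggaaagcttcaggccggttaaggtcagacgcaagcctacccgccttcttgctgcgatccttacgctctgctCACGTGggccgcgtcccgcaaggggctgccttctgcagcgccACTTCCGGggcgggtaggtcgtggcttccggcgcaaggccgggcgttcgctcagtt

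RNA polymerase I machinery comprised 6 genes, of which 2 rose, with a median log2 difference of 0.14. The largest rise of all 56 genes was that of Polr1e (chr4:45018583-45036565, plus strand), which encodes the subunit homologous to yeast A49; gene positions here and later are on GRCm38. In the WT group, clones 28, 29 and 36 had 740.4, 733 and 644 normalized counts, and in the R98S group clones 11, 13 and 35 had 1868, 1588 and 1676. Values of later genes follow this order of clones. The lowest R98S clone was above 2 times the highest WT clone, with group means ± SD of 706 ± 53.3 for WT and 1711 ± 143 for R98S (n = 3). The log2 fold change was 1.28 ± 0.12 (SE), with a limma adjusted p of 0.00071. Its promoter is the first of the windows printed above.

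Polr1a (chr6:71909053-71984935, plus strand), the largest catalytic subunit, had 2286, 2193 and 1925 normalized counts in the WT group and 3101, 2636 and 3009.6 in the R98S group. Its rise was smaller, 1.37-fold with no overlap (log2 fold change 0.45, limma adjusted p = 0.0363), and it did not pass without R98S clone 11. Polr1b, the other large catalytic subunit, had 1648, 1432 and 1364 against 1615, 1788 and 1403, and the groups overlapped (log2 fold change 0.11, 95% interval -0.19 to 0.41). Ubtf, which binds the rRNA gene promoter and had the highest mean normalized count of this step, had 5471, 4968 and 5340.1 against 5651, 5796 and 6217. All 3 R98S clones were above the WT clones for Ubtf, but the difference did not pass the test (log2 fold change 0.16, interval -0.06 to 0.38, limma adjusted p = 0.284). Rrn3, the factor that brings the polymerase to the promoter, had 2466, 2617 and 2152 against 2774, 2169.8 and 2721, with overlapping groups and an interval of -0.23 to 0.39 around 0.08. For Polr1c, a subunit shared with RNA polymerase III, the log2 fold change was 0.10 and the limma adjusted p 0.65.

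Among the abundant nucleolar proteins and coordinators 4 of 6 rose, with a median of 0.47. Ncl (chr1:86344719-86359400, minus strand) encodes nucleolin, a major RNA-binding protein of the nucleolus. The WT clones had 41535, 39045 and 39702 normalized counts of nucleolin mRNA, and the R98S clones 92415, 70773 and 62977. The WT clones lay close together and the R98S clones spread widely, all above WT (means 40094 ± 1291 and 75388 ± 15252, SD, n = 3). Nucleolin mRNA was 1.88-fold higher in R98S cells (log2 fold change 0.89 ± 0.16, limma adjusted p = 0.0119). Npm1, nucleophosmin, an abundant histone-binding protein of the nucleolus with the highest mean of the 56 genes, had 60221, 61694 and 52366 against 73734, 78900.1 and 62062. Every R98S clone exceeded every WT clone, the highest WT and lowest R98S clone being nearly equal, and the difference did not pass the test (log2 fold change 0.30, interval -0.03 to 0.63, limma adjusted p = 0.197).

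Ddx21, an RNA helicase that joins polymerase I transcription to processing, rose 1.52-fold (limma adjusted p = 0.0119), from 9183, 9261 and 7849 to 13926, 12626 and 13395 normalized counts. Mybbp1a, a nucleolar protein known as a binding partner of MYB, rose 1.44-fold. Nolc1, a chaperone of snoRNPs also called Nopp140, rose 1.33-fold. Tcof1, treacle, a partner of polymerase I whose human gene is mutated in Treacher Collins syndrome, had a log2 fold change of -0.02 with an interval of -0.33 to 0.30, and its groups overlapped.

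All 3 core proteins of the box C/D snoRNP, the particle that methylates ribose in rRNA, rose, with a median of 0.44. Only Nop56 of the 3 passed at a threshold of 0.05, without any single WT clone, without R98S clone 11, or with regional shifts removed. Nop56, a scaffold protein with the highest mean normalized count of the 3, had 7916, 7000.2 and 7382 normalized counts in WT and 11795, 10748 and 10084 in R98S clones, a rise of 1.46-fold with no overlap (limma adjusted p = 0.015). Nop58, its paired scaffold protein, had 8089, 7323 and 7481 against 12154, 9963 and 9098 (1.36-fold, limma adjusted p = 0.0533). The R98S clones kept the order 11, 13, 35 for both scaffold transcripts. All tested genes of chromosome 1, which holds Nop58, had median deviations in this same order (0.22, 0.15 and -0.10). Fbl, fibrillarin, the methyltransferase itself, had 2211, 1895 and 2051 against 2583, 2365 and 2952, with clone 35 highest. The rise of 1.28-fold was the smallest among the 29 (limma adjusted p = 0.0819).

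In the box H/ACA snoRNP, which converts uridine to pseudouridine, 3 of the 4 core proteins rose and the median was 0.60. Dkc1 (chrX:75095854-75109777, plus strand), dyskerin, the pseudouridine synthase mutated in X-linked dyskeratosis congenita, had 6041, 5472 and 5416 normalized counts in WT and 11028, 7726 and 9612 in R98S clones. The groups did not overlap, and the mean was 1.68-fold higher (log2 fold change 0.73 ± 0.14, limma adjusted p = 0.0148). Nhp2 (chr11:51619735-51623714, plus strand), an RNA-binding subunit, had 3315, 3179.9 and 3040.3 against 5361, 5971 and 4915. Its rise was the largest in the snoRNP cores (log2 fold change 0.77 ± 0.11, limma adjusted p = 0.00488), and here clone 13 was highest. Nop10, the smallest subunit, rose 1.38-fold (limma adjusted p = 0.0275). Gar1, which binds the catalytic domain of dyskerin, had 2191, 2107 and 2012 against 2377, 1951 and 1979, with overlap and a log2 fold change of -0.01 (interval -0.27 to 0.26). The sign of the Gar1 difference, and that of Tcof1, turned to above 0 when every library was scaled to an equal total or an equal upper quartile.

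**Figure D2:**
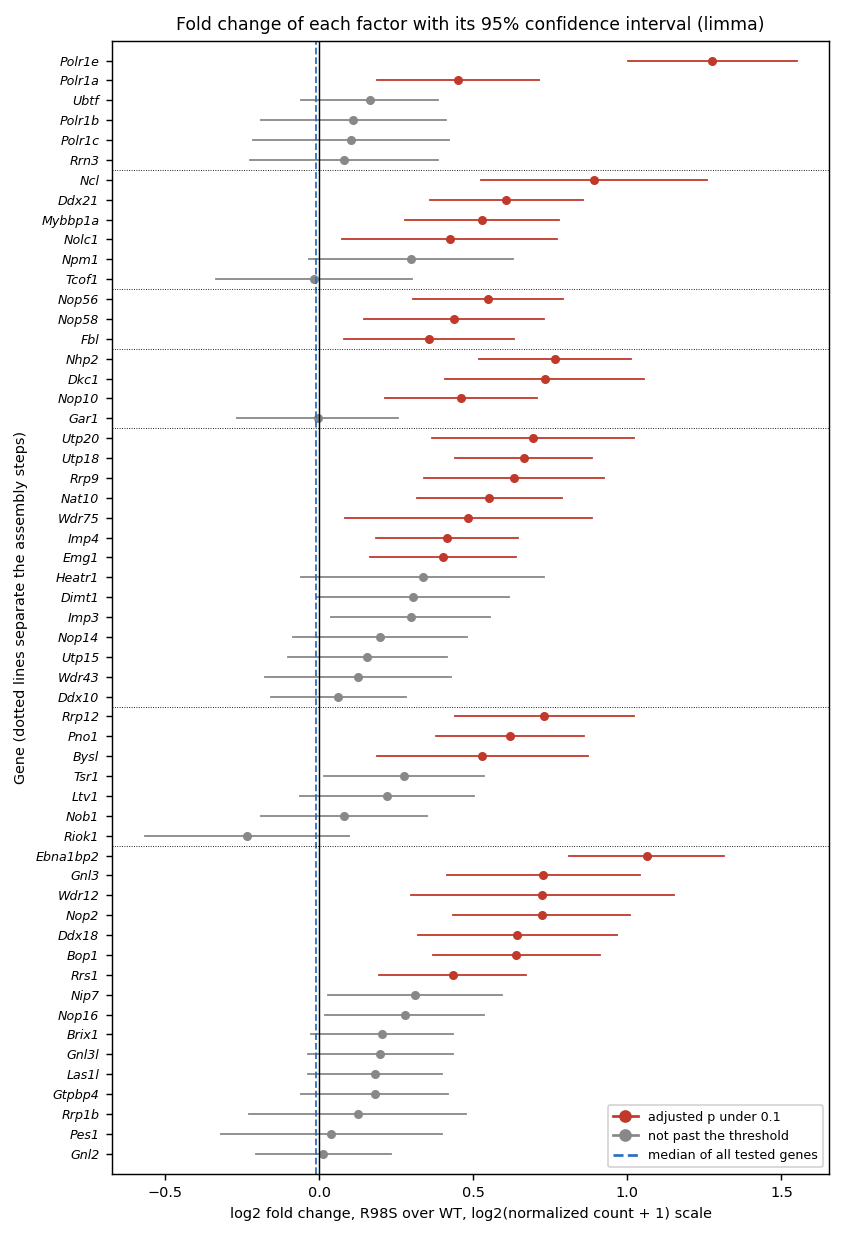
Points give the log2 fold change, R98S over WT, of each of the 56 genes with its 95% interval, by assembly step, with genes past an adjusted p of 0.1 set apart by color. All 3 box C/D core genes passed at this threshold (1 of 3 at 0.05), as did 7 of 14 processome genes, and 3 genes (Riok1, Tcof1 and Gar1) lay below 0 without passing.

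The small subunit processome and the enzymes that modify 18S rRNA gave 14 genes, all with a level above WT, of which 7 rose, and the median was 0.37. Utp20 (chr10:88746607-88826804, minus strand), a very large helical repeat protein of the processome, had 1961, 1978 and 1723 normalized counts in WT and 3269.7, 2501 and 3458 in R98S clones. It rose 1.63-fold (log2 fold change 0.69 ± 0.14, limma adjusted p = 0.0185), with clone 13 lowest of the R98S clones. Utp18 (chr11:93859243-93885766, minus strand), a WD repeat protein of the same particle, had 1504, 1506 and 1399 against 2267, 2341 and 2372. The clones of each group lay within a narrow range, and the log2 fold change was 0.66 ± 0.10 (limma adjusted p = 0.00567). Its promoter holds the E-box printed above.

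Rrp9, which binds the U3 snoRNA, rose 1.56-fold, from 1694, 1682 and 1473 to 2659.9, 2152 and 2735 normalized counts. Nat10, the enzyme that acetylates cytidines of 18S rRNA, rose 1.46-fold, Imp4, a U3-associated protein, 1.34-fold, and Emg1, a methyltransferase acting on a pseudouridine of 18S rRNA, 1.32-fold. Wdr75, a subunit also needed for rRNA gene transcription, rose 1.41-fold. Wdr43, which belongs to the same subcomplex as Wdr75 and had the highest mean normalized count of this step, had 6904, 6676 and 6431 against 8779, 6425 and 6822. Only R98S clone 11 was above the WT clones for Wdr43, and the difference did not pass the test (log2 fold change 0.13, interval -0.18 to 0.43). The remaining genes of this step, Heatr1, Dimt1, Imp3, Nop14, Utp15 and Ddx10, had log2 fold changes from 0.06 (Ddx10) to 0.33 (Heatr1) and did not pass.

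Of the 7 genes grouped here as late pre-40S factors, 3 rose, and the median was 0.28. Rrp12 (chr19:41862851-41896173, minus strand), needed for export of pre-ribosomes, had 1607, 1541 and 1459 normalized counts in WT and 2568, 2198 and 2922 in R98S clones. The groups were well apart, and the mean was 1.67-fold higher (log2 fold change 0.73 ± 0.13, limma adjusted p = 0.0107). Pno1, which holds the end of 18S rRNA and partners the nuclease Nob1, rose 1.53-fold (limma adjusted p = 0.00964), from 1455, 1439 and 1271 to 2103, 2077 and 2211. Nob1, which makes the final cut at that end and had the highest mean normalized count of this step, had 2237, 2309 and 1839 against 2318, 2159.6 and 2248, with overlap (log2 fold change 0.08, interval -0.19 to 0.35). Bysl, bystin, rose 1.46-fold (limma adjusted p = 0.049). Tsr1, a GTPase-like protein, and Ltv1, an export factor, had log2 fold changes of 0.28 (interval 0.02 to 0.53) and 0.22 (interval -0.06 to 0.50), which did not pass.

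Riok1, a kinase of the last cytoplasmic steps, had the lowest fold change of the 56 genes. The WT clones had 1648, 1570.1 and 1184 normalized counts of this transcript and the R98S clones 1306, 1192 and 1205. WT clone 36 was the lowest of all 6 clones, and the other WT clones were the highest (log2 fold change -0.24, interval -0.57 to 0.10, limma adjusted p = 0.301). Without WT clone 36 the log2 fold change was -0.38 and passed the test, with a limma adjusted p of 0.0734, where 12.1% of all tested genes were lower.

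Among the 60S assembly factors all 16 genes had a level above WT, 13 with no overlap between groups, 7 rose, and the median was 0.29. Ebna1bp2 (chr4:118620799-118627776, plus strand), a scaffold of early pre-60S particles, had 2643, 2526 and 2391 normalized counts in WT and 5514, 4684 and 5637 in R98S clones. Every R98S clone was far above the WT clones (means 2520.1 ± 126 and 5278 ± 519, SD, n = 3), and the log2 fold change was 1.06 ± 0.11 (limma adjusted p = 0.00124). Gnl3 (chr14:31012433-31019152, minus strand), nucleostemin, a nucleolar GTPase abundant in dividing and stem cells, had 3938, 3656 and 3377 against 7289, 5627 and 5374. It rose 1.67-fold (log2 fold change 0.73 ± 0.14), with R98S clone 11 highest. Its relatives Gnl3l and Gnl2 had log2 fold changes of 0.20 (interval -0.04 to 0.43) and 0.01 (interval -0.21 to 0.23), and neither passed the test.

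The 3 proteins of the PeBoW complex, which joins 28S and 5.8S rRNA maturation, had different values. Wdr12 (chr1:60069785-60098645, minus strand), a WD repeat protein, had 2346, 2119 and 2287 normalized counts in WT and 4949, 3621 and 2858 in R98S clones. The R98S clones ran over a wide range, all above WT (log2 fold change 0.72 ± 0.19, limma adjusted p = 0.0367). Bop1 had 3107, 2970.3 and 2706 against 4814, 3993 and 4917 and rose 1.56-fold (limma adjusted p = 0.013). Pes1, pescadillo, had 3206, 3390.5 and 2880.2 against 3205, 3994 and 2653, with R98S clones 13 and 35 at the top and bottom of all 6 clones (log2 fold change 0.04, interval -0.32 to 0.40). The difference between the fold changes of these genes was not tested.

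Nop2 (chr6:125131909-125144753, plus strand), a cytosine methyltransferase of 28S rRNA, had 2026, 1968 and 1774 normalized counts in WT and 3413, 2715 and 3425 in R98S clones. The groups were apart, with R98S clones 11 and 35 nearly equal and clone 13 lower (log2 fold change 0.72 ± 0.13, limma adjusted p = 0.0107). Ddx18 (chr1:121553835-121567989, minus strand), a helicase of the early pre-60S particle, had 1841, 1860.2 and 1581 against 3276, 2626 and 2395 (log2 fold change 0.64 ± 0.14, limma adjusted p = 0.0225). Rrs1, which brings the 5S RNA particle into the subunit, rose 1.35-fold. Gtpbp4, a GTPase with the highest mean normalized count of this step, had 5583, 5629 and 4769.6 against 5908, 5951 and 6199. All R98S clones were above the WT clones for Gtpbp4 but the difference did not pass (log2 fold change 0.18, interval -0.06 to 0.42), and 7 named pseudogenes of this gene could share its reads. Only pseudogenes that carry the name of their gene were counted, so other genes here may have some under other names. The remaining genes of this step, Nip7, Nop16, Brix1, Las1l and Rrp1b, had log2 fold changes from 0.12 (Rrp1b) to 0.31 (Nip7) and did not pass.

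The clones differed in how far they followed the pattern. The median deviation of the 56 genes from their mean over the 6 clones on the log2 scale was -0.11 for clone 28, -0.15 for clone 29 and -0.28 for clone 36 of the WT group. For the R98S group it was 0.29 in clone 11, 0.10 in clone 13 and 0.17 in clone 35. Over all tested genes the same medians lay between -0.01 and 0.01. WT clone 36 was the lowest WT clone in 45 of the 56 genes, where it was lowest in 43.2% of all tested genes, and the lowest of all 6 in 41. R98S clone 11 was the highest of all 6 in 27 genes, and R98S clone 13 the lowest R98S clone in 33. Within a group the median coefficient of variation was 7.32% in WT and 10.1% in R98S clones. Genes with a level at least as high had medians of 8.59% and 11.9%. Single genes among the 56 reached 19.1% in WT (Heatr1) and 27.8% in R98S clones (Wdr12).

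**Figure D3:**
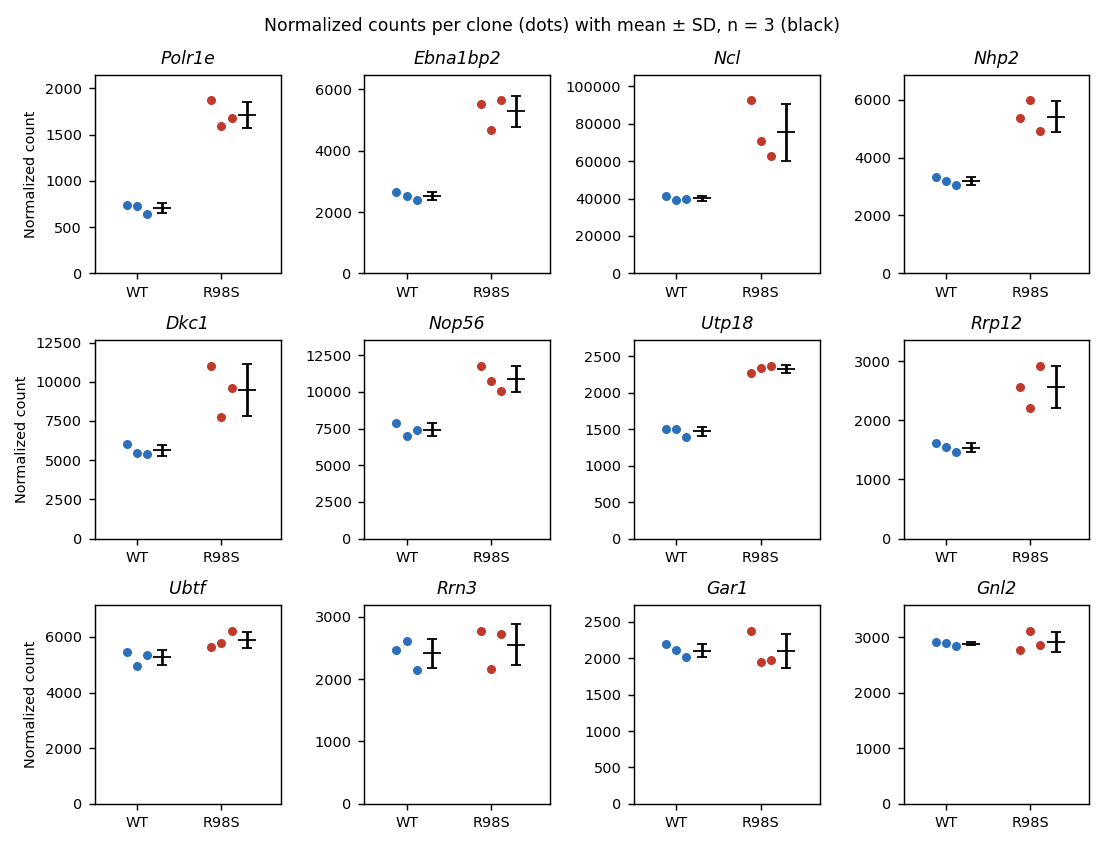
Normalized counts (y axis, from 0, one panel per gene) of 12 genes in each WT clone (blue) and R98S clone (red), with black marks for the mean ± SD of 3 clones. The groups are apart in Polr1e, Ebna1bp2, Ncl, Nhp2, Dkc1, Nop56, Utp18 and Rrp12, narrowly so in Ubtf, and they overlap in Rrn3, Gar1 and Gnl2.

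Leaving out each clone in turn, between 21 (without WT clone 29, where 5.7% of all tested genes rose) and 30 (without R98S clone 13, where 12.4% did) of the 56 genes rose, and the median fold change over all 17 alternatives stayed between 0.32 and 0.43 on the log2 scale. The count tests on recovered reads called 30 of the 56 higher with edgeR, beside 11.5% of all tested genes, and 32 with DESeq2, beside 12.6%. Of the 29 genes, 18 rose in every alternative, among them Polr1e, Ebna1bp2, Ncl, Nhp2, Dkc1, Nop56, Rrp12, Gnl3, Nop2, Utp20, Utp18 and Ddx18. Nolc1, Fbl and Bysl lost the call without any single clone except R98S clone 13, Wdr75 without any except R98S clone 35, and Nop58 without any WT clone or R98S clone 11, with limma adjusted p-values from 0.102 to 0.248. Nop10 lost it without WT clone 28 (limma adjusted p = 0.116), Emg1 without WT clone 28 (0.156) or R98S clone 11 (0.112), Polr1a without R98S clone 11 (0.112), and Imp4, Rrs1 and Wdr12 without WT clone 29 (0.105, 0.108 and 0.107). In all of these cases the level stayed above WT. Of the 56 genes, 13 passed in no setting in either direction.

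Genes of some chromosomes had a shifted median between the groups, so the 56 genes were also read against their chromosomal neighbors. All 7 of the genes on chromosome 1 rose, namely Ncl, Nop58, Wdr12, Wdr75, Imp4, Ddx18 and Rrs1. Over all 608 tested genes of chromosome 1 the median log2 fold change was 0.18, with 20.2% higher. By clone, the median deviation of these 608 genes was -0.13, -0.09 and -0.08 in WT clones 28, 29 and 36. It was 0.22 and 0.15 in R98S clones 11 and 13 but -0.10 in clone 35, within the WT range. On chromosome 4, which holds Polr1e and Ebna1bp2, 22.5% of tested genes rose, with a median of 0.15. None of the 6 genes on chromosome 13 rose, near the share of 5.77% among all tested genes there, whose median was -0.09. Outside chromosomes 1 and 4, 20 of 46 rose. On the other chromosomes that hold these genes, the share of all tested genes that rose ran from 3.74% (chromosome 8) to 19.5% (chromosome 7).

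When each gene was set against the median of its 30 nearest tested genes in each library, 35 of the 56 rose and none fell, beside 11.8% of all tested genes, and the median was 0.36. Of the 29 genes that rose without this step, 23 were among the 35. The 6 that no longer passed were Nolc1, Fbl, Nop58, Wdr75, Imp4 and Rrs1. Their log2 fold changes went from 0.42 to 0.29 for Nolc1, 0.36 to 0.26 for Fbl, 0.44 to 0.15 for Nop58, 0.48 to 0.20 for Wdr75, 0.42 to 0.15 for Imp4 and 0.43 to 0.19 for Rrs1. On chromosome 1 the number fell from 7 to 3. The 12 that passed only with it were Npm1, Wdr43, Heatr1, Imp3, Ltv1, Tsr1, Nop16, Nip7, Gnl3l, Gtpbp4, Brix1 and Las1l, which brought the 60S assembly factors to 12 of 16 and the late pre-40S factors to 5 of 7. For the neighbors of the 56 genes, the log2 fold change ranged from -0.35 to 0.36 with a median of 0.01. The neighbors of Polr1e and Ebna1bp2 lay at 0.33 and 0.36, and set against them these genes still had log2 fold changes of 0.94 and 0.71. Copy number was not measured here.

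**Figure D4:**
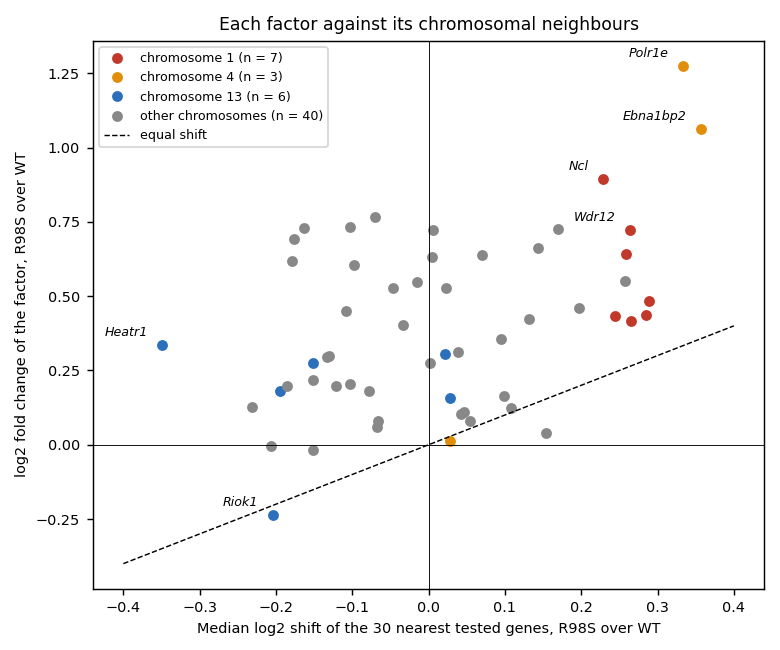
Each point is 1 of the 56 genes, colored by chromosome, with the median log2 fold change of its 30 nearest tested genes on the x axis and its own log2 fold change on the y axis. The neighbors lie between -0.35 and 0.36, and most of the genes lie above the diagonal on which a gene equals its neighbors.

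A further 65 genes of the same pathway, not among the 56, were listed from general knowledge, with earlier results of these data known. They gave a like pattern with a smaller median. Of these 65 genes, 25 rose (38.5%) and none fell, where 10.7% of all tested genes rose and 13.1% fell. The level was above WT in 59, against 49.1% of all tested genes. In 34 every R98S clone was above every WT clone, which 18.1% of all tested genes showed. The median log2 fold change was 0.25. By step, 2 of 8 other polymerase I and promoter factor genes rose, 13 of 33 processome genes and 10 of 24 genes of 60S assembly. The largest was Nol12, a nucleolar RNA-binding protein, with 1049, 921 and 1039 normalized counts in WT and 2354, 2269.9 and 2524 in R98S clones (log2 fold change 1.25). Nol6, a processome protein, had 1243, 1229 and 1067 against 2086, 2119 and 2642 (log2 fold change 0.95), and Wdr46, another, 1448, 1338 and 1313 against 2823, 2157 and 2318 (log2 fold change 0.82). Both rose with no overlap between groups, as did Nol12. Taf1b, a subunit of the promoter factor SL1, was the 1 gene of the 65 with every R98S clone below every WT clone. Such genes made up 19.2% of all tested genes. The Taf1b log2 fold change of -0.24 did not pass the test.

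**Figure D5:**
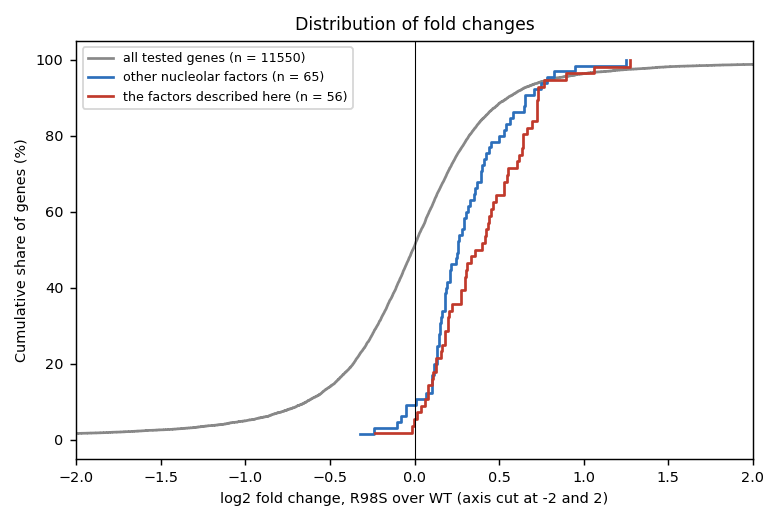
Cumulative share of genes (y axis, percent) against log2 fold change, R98S over WT (x axis, cut at both ends), for the 56 factors, the 65 other nucleolar factors and all 11550 tested genes. The curve of the 56 factors crosses its midpoint at 0.38, that of the 65 at 0.25 and that of all genes at -0.01.

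Several of the genes host snoRNAs, the guide RNAs of rRNA modification, in their introns. A snoRNA gene on the same strand lay within 7 of the 56 genes (12.5%), against 2.15% of 10999 annotated tested genes. They were Nop56 with 5, Nop58 with 4, Ncl, Gnl3 and Wdr43 with 3 each, Tsr1 with 2 and Dkc1 with 1, and of these 7 all but Wdr43 and Tsr1 rose. Levels were also compared per kilobase. Npm1 ranked first and Ncl second whether merged exons (24326 and 5668 normalized counts per kilobase) or the principal transcript (39699.6 and 7039.9) gave the length, while Nop58 moved from rank 26 to rank 3, its merged exons spanning 10758 bases and its principal transcript 1713.

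Depth was similar across clones. The libraries held between 21786776 and 24204991 reads on genes, and the lowest mean among the 56 genes was 429 normalized counts, far above the floor of 3 reads. Rpl10, the target of the hairpin in all clones, had 2637 ± 655 normalized counts in the WT and 2509 ± 580 in the R98S group (SD, n = 3, limma adjusted p = 0.871), and reads of the human cDNA may be among them. Of 11 markers of Ba/F3 cells, 7 had above 3 reads in some library, with summed levels of 99405 to 119393 in WT and 135976 to 160651 in R98S clones, carried by Csf2rb and Csf2rb2, while Pax5, Vpreb1 and Igll1 stayed at or below 3 reads. Ptprc, another of these markers, went the other way, with 10713, 14068 and 8869 normalized counts in WT against 5657, 4391 and 3366 in R98S clones. Markers of mast and myeloid cells, mostly Gata2, summed to 25061 to 29778 in WT and 13828 to 17410 in R98S clones, with 5 of 7 above 3 reads, Fcer1a at 0 and Kit at no more than 1 read. T cell markers summed to 13.97 to 65.0 and 46.9 to 92.9, and fibroblast markers to 6.14 to 21.5 and 9.25 to 17.4. The part of these marker differences in the nucleolar factors was not tested. Exons of 23 of the 56 genes overlap an exon of a gene on the opposite strand, 13 of them among the genes that rose, by at most 1240 bases (Tsr1 with Srr), and whether counting used the strand is not given in the sources used here, so such values are less certain.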

How the data were processed

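Polyadenylated RNA of 6 monoclonal Ba/F3 cultures was sequenced with a strand-marking kit. Per the submitters' processing notes and the study's methods, reads of ribosomal and transfer RNA were removed with Bowtie2, the rest was aligned to mm10 with TopHat (version 2.0.11), alignments with a mapping quality of at least 10 were retained, and reads per gene were counted with HTSeq. The annotation and strand setting are not given in the sources used here. The deposited signal is a normalized read count, which the authors obtained by dividing each gene's count by a DESeq2 size factor. Values were whole multiples of 1 step per library in 100% of cases (tolerance 0.01 reads), from 0.92516 to 1.0746, which gave back the reads. A floor of 3 reads is 2.78 to 3.22 normalized counts, and floors cover counting error only. The step of WT clone 36 (1.0008) is so close to 1 that low values could not test it, and the reads, floor and count tests of that clone rest on it.

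Two-sided tests used limma 3.58.1 in R 4.3.3 with its intensity trend, on log2(normalized count + 1), for genes with a mean of at least 10, and Benjamini-Hochberg adjusted over all 11550 of them, with a threshold of 0.1. Fold changes on this scale understate changes of low genes. Clones of a group differed by more than counting noise (chi-square divided by its degrees of freedom, 18.7 to 65.2). Alternatives were pseudocounts of 0.5 and 5, a minimum mean of 50 or no filter, scaling to equal totals or upper quartiles, no trend, a threshold of 0.05, leaving out each clone, edgeR (version 4.0.16) and DESeq2 (version 1.42.0) on recovered reads, and removal of the shift of the 30 nearest tested genes. Principal transcript lengths were chosen after seeing the data. Positions are from GENCODE M21 (GRCm38) by symbol, matched for 36832 genes, and promoters from RefSeq.

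The members and lists were chosen with earlier results of these data known. Named with values are the 12 risen members with the largest change, Ncl, Npm1, Fbl, Nop56, Nop58, Dkc1, Polr1a, Polr1b, Ubtf and Rrn3. Also given are the member of each step with the highest mean normalized count, which is not corrected for gene length, 3 other pathway genes and Rpl10. The other risen members are given by name. Any other gene was chosen after its values were seen. Scripts were tested on simulated data. Riok2 and protein sequences were not analysed here, and 1 marker gene is not reported here.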

Additional observations from a re-analysis of the deposited data

How the results depend on the processing

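The count of the 56 factors that rose stayed within 1.5 times of 29 under all 17 alternatives, and the factor median stayed above 0. Over all genes 2755 passed at the threshold of 0.1, 1722 at 0.05, and between 1327 and 3219 when 1 clone was left out (fewest without WT clone 28). The number of factors called lower was 0 to 1 when 1 clone was left out (Riok1, without WT clone 36). Of the 65 other nucleolar factors, 12 to 30 rose when 1 clone was left out. The number was 12 without R98S clone 11, 13 without WT clone 28 or 29 and 16 without WT clone 36. Of all tested genes 6.14%, 5.11%, 5.7% and 9.64% rose in these fits, in this order. Between 0 and 1 of the 65 were lower (1 without R98S clone 13, where 15.5% of all tested genes were lower). After regional shifts were removed 1 was lower (Taf1b), as were 13.4% of all tested genes. Nolc1, Fbl and Wdr75 did not pass without the expression filter or without the intensity trend.

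Differences near 0 changed sign in some settings, and none of those genes had passed the test. With libraries scaled to the same total or upper quartile, the log2 fold change was 0.00441 and 0.025 for Tcof1 and 0.015 and 0.036 for Gar1. Count tests on recovered reads gave Gar1 0.014 (edgeR) and 0.0093 (DESeq2). Removal of regional shifts gave 0.14 for Tcof1, 0.20 for Gar1, -0.12 for Pes1, -0.014 for Gnl2 and 0.039 for Rpl10. Leaving out 1 clone gave Polr1c -0.0051 to 0.24, Rrn3 -0.00032 to 0.19, Tcof1 -0.14 to 0.050, Gar1 -0.097 to 0.045, Wdr43 -0.010 to 0.21, Nob1 -0.020 to 0.14, Pes1 -0.11 to 0.18, Rrp1b -0.0028 to 0.23, Gnl2 -0.035 to 0.050 and Rpl10 -0.29 to 0.13. The cause of these changes was not tested. No paired analysis was possible because the WT and R98S clones carry different numbers. With 3 clones per group, spread between clones and not depth limited the precision.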
